A study of Homo sapiens with 4 samples.

Results

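The genes described here encode enzymes of glycolysis, and nascent RNA from them was measured in human K562 cells with and without the elongation factor IWS1. They were chosen by name as 1 major gene for each of most steps from glucose to lactate, with a pair of hexokinases at the first step: HK1, HK2, GPI, PFKL, ALDOA, GAPDH, PGK1, ENO1, PKM and LDHA. Of these 10 genes, 9 are listed among the 10147 genes of the data, and ENO1 is not analysed here. K562 is an established erythroleukaemia cell line. In the edited line used, all groups carried a degradation tag (dTAG) joined to the start of the IWS1 protein at its own locus, so that the small molecule dTAG7 directs the protein to degradation.

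The control group received the solvent DMSO and the IWS1-depleted group, dIWS1, received 500 nM dTAG7, both for 1 h, with 2 libraries each. Newly made RNA was labelled with 500 µM 4-thiouridine (4sU) for 5 min and sequenced after isolation (transient transcriptome sequencing, TT-seq). Because the pulse is so short, a gene's reads come from its whole transcribed length, introns included. Their number is meant to follow the RNA made during the pulse and not the stored mRNA, and carry-over of unlabelled RNA was not measured. The introns took 64.8% (ALDOA) to 95.7% (HK1) of the span of the listed genes' canonical transcripts. Values are whole reads recovered from the deposited means and divided by spike-in size factors (normalized counts). The recovered data held 1 control column and 2 dIWS1 columns, which carry no replicate number. They are called dIWS1 column 1 and column 2 below. The control column entered the deposited means 2 times, so it was counted as 1 sample, and the spread between control libraries could not be measured. The control column held 29697189 reads, dIWS1 column 1 held 20599922 and column 2 held 20807156. The K562 and erythroid marker genes were all listed (11 of 11), and 0 of 7 markers of other cell types were.

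Glycolysis splits glucose into pyruvate in the cytosol and yields ATP and NADH. Its upper steps spend ATP to trap and cleave the sugar, its lower steps return ATP, and lactate dehydrogenase turns pyruvate into lactate and restores NAD+. Transcription of many of these genes is raised by the hypoxia-inducible factors and by MYC, and proliferating leukaemia cells use the pathway heavily. IWS1, which takes its name from its partner SPT6, binds transcribing RNA polymerase II and assists elongation, and the comparison asks how the RNA synthesis of these genes stood after its rapid loss.

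The start regions of the genes differ in the sequence elements they hold, and 3 are printed: those of PFKL, which had the lowest log2 change of the listed members, of HK2, which lay near the other end, and of LDHA, a textbook target of hypoxia-inducible factors. Each is the window of 250 bases before the annotated start in RefSeq (GRCh38.p14), read 5′ to 3′ on the strand of the gene. PFKL lies at chr21:44299803-44300052 (plus strand), HK2 at chr2:74833877-74834126 (plus strand) and LDHA at chr11:18394313-18394562 (plus strand). Capitals mark the hypoxia response core (ACGTG, or CACGT on the other strand) and the GC box (GGGCGG, or CCGCCC on the other strand), a binding element of SP family factors.
PFKL promoter: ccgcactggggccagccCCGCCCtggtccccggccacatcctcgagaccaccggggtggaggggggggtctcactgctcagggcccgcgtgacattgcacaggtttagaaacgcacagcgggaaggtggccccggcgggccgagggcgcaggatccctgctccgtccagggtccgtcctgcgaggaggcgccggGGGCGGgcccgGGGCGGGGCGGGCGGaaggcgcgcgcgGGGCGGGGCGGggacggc
HK2 promoter: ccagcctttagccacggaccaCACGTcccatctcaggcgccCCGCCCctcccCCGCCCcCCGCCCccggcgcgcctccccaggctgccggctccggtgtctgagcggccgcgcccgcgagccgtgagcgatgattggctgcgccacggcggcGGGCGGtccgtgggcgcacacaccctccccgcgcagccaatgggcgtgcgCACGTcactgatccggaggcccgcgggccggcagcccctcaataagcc
LDHA promoter: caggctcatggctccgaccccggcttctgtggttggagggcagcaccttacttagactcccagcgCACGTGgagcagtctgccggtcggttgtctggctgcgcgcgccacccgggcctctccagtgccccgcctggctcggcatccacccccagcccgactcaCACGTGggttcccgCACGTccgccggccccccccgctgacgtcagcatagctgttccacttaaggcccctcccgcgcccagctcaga
The PFKL window held 7 GC boxes and no core in the form scanned, and the HK2 window held 4 GC boxes and 2 cores. The variant letters GCGTG, which occur in both of these windows, were not scanned. The LDHA window held 5 core matches over both strands and no GC box. A second HK2 window held 4 core matches and 1 GC box, and a second LDHA window no core and 4 GC boxes. The unprinted window of PKM, the listed member with the highest log2 change, held 3 GC boxes and no core. The E box CACGTG, which MYC binds, holds the core on each strand. Each of the 2 E boxes of the printed LDHA window thus gives 2 core matches and also counts as an E box. RefSeq gave 20 such windows for the 10 genes, some genes having several starts. The core was present in 9 of the 20 windows against 18.5% of all 35116 windows. The GC box was present in 11 against 42.6%, and the E box in 4 against 6.34%. Counted by gene, at least 1 window held the core in 6 of the 10 genes, the GC box in 9 and the E box in 4. Some windows of the same gene overlap, and no share by gene was taken over all genes. The letters TATAAA were present in 0 of the 20 windows against 10.7% of all. The only GAPDH window (chr12:6535014-6535263) lay inside the gene, so the bases before its first start at 6534517 were not scanned. The only windows of GPI and PKM also lay inside their RefSeq spans. GC content ran from 45.6% to 78.0% against a median of 58.0% over all windows. These matches describe the letters of the windows and were not tested against the response.

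RNA synthesis per kilobase of gene differed widely along the pathway. In the control column, GAPDH, which oxidizes glyceraldehyde 3-phosphate, had 1518 normalized counts per kb, and ALDOA, the aldolase that cleaves the phosphorylated sugar, had 512. LDHA followed at 254, PKM, the pyruvate kinase gene, at 236 and PGK1, the first ATP-yielding kinase, at 161 normalized counts per kb. These 5 lay at percentile 93.1 or above among all genes with a known length, whose median was 42.0. HK1 had 93.6 and GPI, the glucose 6-phosphate isomerase gene, 71.4 normalized counts per kb. HK2, the inducible hexokinase, had 45.4 and PFKL, the liver-type subunit of phosphofructokinase, had 42.2, close to that median. With 1 control column these levels have no replicate spread. The order was the same in both dIWS1 columns except that PKM (204 and 229) stood above LDHA (199 and 201), so these neighbours were not separated. GPI (55.0 and 54.3) stayed below HK1 (58.2 and 62.8). Levels use the full RefSeq span. The HK1 span of 131.9 kb covers several alternative starts, and over the 83.0 kb of its canonical transcript the control level of HK1 would be 149 per kb.

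**Figure D1:**
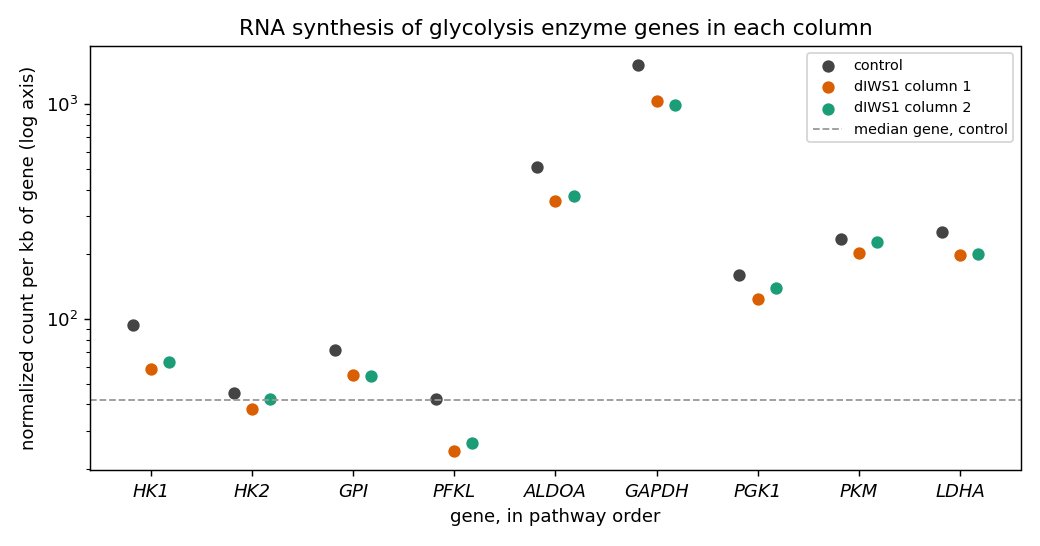
Normalized counts per kilobase (log axis) of the 9 listed glycolysis enzyme genes in pathway order, with 1 point for the control column and 1 for each of the 2 dIWS1 columns. GAPDH is highest at 1518 in the control and PFKL lowest at 42.2, each dIWS1 point lies below its control point, and the dashed line marks the median gene of the control, 42.0.

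All 9 listed genes had fewer normalized counts in both dIWS1 columns than in the control, as had 93.0% of all genes tested. Of the 9, limma called 6 lower: HK1, GPI, PFKL, ALDOA, GAPDH and LDHA. The background for this count is 65.6% of the 9916 genes tested called lower at a Benjamini-Hochberg adjusted p under 0.05, so the members' share lay near that of all genes. HK2, PGK1 and PKM did not pass. None was above the control in either column, and limma voom called 0 of 9 higher, against 0.101% of all genes. As every fit lay below 0, none could pass in that direction, also at an unadjusted p under 0.05. With a trend in place of voom weights limma called 4 of the 9 lower and 0 higher, against 55.1% and 0.0807% of all genes, and the calls of GPI (adjusted p = 0.058) and LDHA (adjusted p = 0.0933) were lost. The median log2 change of the members was -0.39, and that of all genes tested was -0.42, with quartiles at -0.60 and -0.26. Each change is dIWS1 minus control on the log2 scale, with the standard error of the limma fit, which takes the unmeasured spread of the control to be like that between the dIWS1 columns.

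The hexokinases, which phosphorylate glucose on entry, stood apart from each other. HK1 (chr10:69270000-69401882) had 12339 normalized counts in the control, 7682 in dIWS1 column 1 and 8281 in column 2. The dIWS1 columns of HK1 lay at 62.3% and 67.1% of the control. The fitted log2 change of HK1 was -0.63 (SE 0.15, adjusted p = 9.57e-05). HK2 (chr2:74834127-74893359) had 2691 normalized counts in the control, 2262 in column 1 and 2506 in column 2. The values of HK2 were only slightly below the control, and its log2 change of -0.18 (SE 0.15, adjusted p = 0.275) did not pass the test. The 95% counting intervals of the log2 ratios were -0.72 to -0.64 and -0.62 to -0.53 for HK1. For HK2 they were -0.33 to -0.17 and -0.18 to -0.02. They did not overlap in either dIWS1 column, which covers counting error only. Quartiles of all genes tested were at -0.60 and -0.26, and how often pairs of genes do not overlap was not tested.

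The next steps rearrange the sugar and commit it to the pathway. GPI (chr19:34359718-34402413) had 3050 normalized counts in the control, 2347 in column 1 and 2317 in column 2. Its dIWS1 columns were nearly equal, and the log2 change was -0.39 (SE 0.15, adjusted p = 0.0176). PFKL (chr21:44300053-44327373) had 1153 normalized counts in the control, 664 in column 1 and 721 in column 2. Phosphofructokinase catalyses the committed step and is the main point of control of the pathway. PFKL fell to 57.5% of the control in column 1 and 62.5% in column 2, the lowest shares of the 9 genes, with a log2 change of -0.74 (SE 0.13, adjusted p = 6.88e-07).

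Aldolase and glyceraldehyde 3-phosphate dehydrogenase link the upper to the lower pathway, and both genes are short. ALDOA (chr16:30064279-30070420) spans 6.14 kb and had 3143 normalized counts in the control, 2167 in column 1 and 2293 in column 2. ALDOA was lower in both columns by a similar amount, with a log2 change of -0.50 (SE 0.15, adjusted p = 0.00246). GAPDH (chr12:6534517-6538371) spans 3.86 kb and had 5852 normalized counts in the control, 3996 in column 1 and 3814 in column 2. The log2 change of GAPDH was -0.58 (SE 0.15, adjusted p = 0.00042). GAPDH, a gene often used as a constant reference, was at 66.7% of the control. The median log2 change of all genes tested was -0.42, and the stored mRNA was not measured. In GAPDH column 2 lay below column 1 by 0.07 on the log2 scale, whereas over all genes averaging at least 100 normalized counts column 1 was mostly the lower one (median of column 1 minus column 2, -0.12).

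The lower pathway returns ATP. PGK1 (chrX:78104248-78129295) had 4030 normalized counts in the control, 3100 in column 1 and 3481 in column 2. The log2 change of PGK1 was -0.29 (SE 0.15, adjusted p = 0.0737) and did not pass. PKM (chr15:72199029-72231591), which makes the final ATP and pyruvate, had 7675 normalized counts in the control, 6630 in column 1 and 7447 in column 2. Column 2 of PKM was close to the control, with a counting interval of its log2 ratio from -0.09 to 0.00, and column 1 was not (-0.26 to -0.16). The fitted log2 change of PKM was -0.13 (SE 0.15, adjusted p = 0.431), the smallest of the 9. LDHA (chr11:18394563-18408425) had 3524 normalized counts in the control, 2754 in column 1 and 2785 in column 2. The dIWS1 columns of LDHA were nearly equal, and its log2 change was -0.35 (SE 0.15, adjusted p = 0.0345). GAPDH, PGK1 and LDHA have processed copies elsewhere in the genome. The authors kept unique alignments, so reads that match a copy equally well were not counted.

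The transcript of the tagged gene itself had 3649 normalized counts in the control, 2350 in column 1 and 2640 in column 2 (IWS1, log2 change -0.55, SE 0.15, adjusted p = 0.000838). dTAG7 acts on the protein, so this value does not measure depletion.

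**Figure D2:**
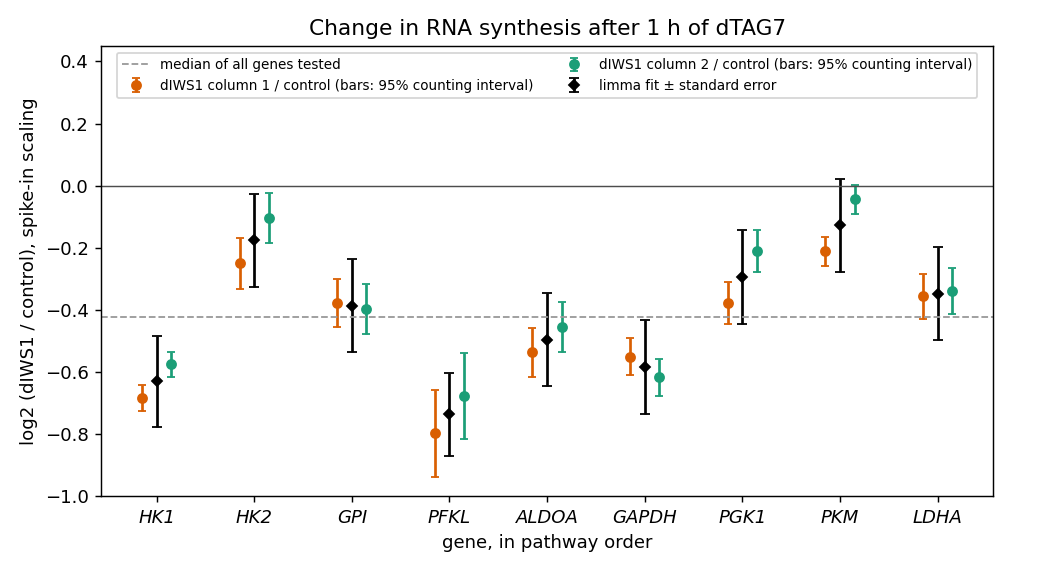
Log2 change of dIWS1 against control for the 9 listed glycolysis enzyme genes in pathway order, under spike-in scaling, with coloured points for the single dIWS1 columns (bars, 95% counting interval) and black diamonds for the limma fit (bars, standard error). The fits all lie below 0, from -0.74 (PFKL) to -0.13 (PKM), on both sides of the dashed line at the median of all genes tested, -0.42.

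Because nearly all genes were lower (93.0% of those tested lay below the control in both columns), the same columns were also centred on the median gene, which asks whether a gene stood below or above the shared shift. The shared shift that the centring took out was -0.47 in column 1 and -0.36 in column 2 on the log2 scale. Among the 9 genes, HK1 and PFKL were then called lower than the median gene (2 of 9, against 16.1% of all genes) and HK2 and PKM higher (2 of 9, against 15.0%). The centred log2 differences were -0.32 for PFKL (SE 0.08, adjusted p = 0.00351) and -0.22 for HK1 (SE 0.06, adjusted p = 0.00744). They were 0.29 for PKM (SE 0.07, adjusted p = 0.000889) and 0.24 for HK2 (SE 0.07, adjusted p = 0.00976). Both dIWS1 columns gave similar centred ratios for these genes, at -0.33 and -0.32 for PFKL and -0.22 and -0.22 for HK1. The ratios were 0.26 and 0.32 for PKM, and 0.22 and 0.26 for HK2. Both ratios of a gene use the same control column, so an error in that column moves them alike. With no filter on low values the calls of HK1 (adjusted p = 0.0558), HK2 (adjusted p = 0.0616) and PFKL (adjusted p = 0.0507) were lost, and that of PKM held (adjusted p = 0.0481).

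The other 5 genes were not called against the median gene. ALDOA (centred log2 difference -0.08, adjusted p = 0.402) and GAPDH (-0.17, adjusted p = 0.0664) lay below it in both columns. PGK1 (0.12, adjusted p = 0.196) and LDHA (0.07, adjusted p = 0.508) lay above it in both columns. GPI (0.03, adjusted p = 0.814) lay above it in column 1 and below it in column 2. The median centred difference over the 9 genes was 0.03.

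**Figure D3:**
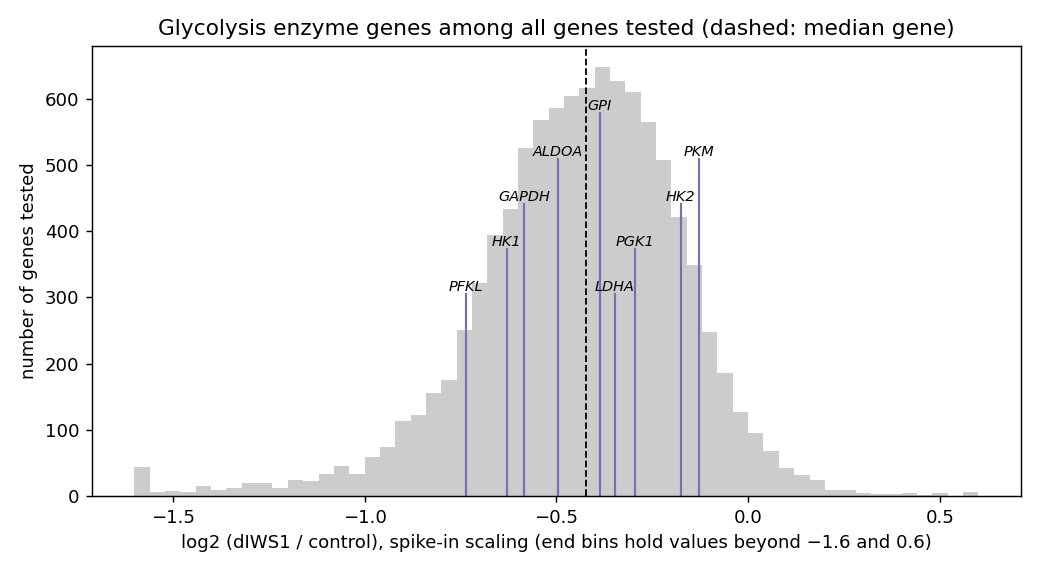
Histogram of the log2 change under spike-in scaling over the 9916 genes tested (vertical axis, number of genes), with a labelled line at the change of each of the 9 listed genes (line heights carry no value) and a dashed line at the median. The members run from percentile 11.8 of all genes (PFKL) to percentile 90.4 (PKM), on both sides of the median of -0.42.

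The members were also placed among genes of like length, in 4 classes of 2428 genes each, and kept a wide spread. The classes were bounded at 11.4, 28.3 and 65.0 kb. PFKL, at 27.3 kb, was at percentile 9.56 of the log2 change in its class, whose median was -0.38, and PGK1 (percentile 64.5) and LDHA (percentile 56.0) of the same class lay above that median. PKM, at 32.6 kb, was at percentile 88.0 of the next class, whose median was -0.35, with HK2 at percentile 82.6 and GPI at percentile 41.9. HK1, the longest of the 9 at 131.9 kb, was at percentile 24.96 of the longest genes, whose median was -0.49. GAPDH (percentile 32.3) and ALDOA (percentile 45.6) lay below the median of the shortest genes, -0.47.

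Other genes of glycolysis, among them isozymes and the steps without a member above, gave 8 listed genes of 21. Under spike-in scaling 4 of the 8 were called lower by limma, against 65.6% of all genes, and 0 of the 8 higher, against 0.101%. All 8 lay below the control in both columns, as did 93.0% of all genes tested. None of the 8 could therefore pass as higher, also at an unadjusted p under 0.05. Their median log2 change was -0.36. TPI1, which interconverts the triose phosphates, had 1560 normalized counts in the control, 955 in column 1 and 1054 in column 2 (log2 change -0.64, SE 0.14, adjusted p = 3.44e-05). TPI1 was also called lower than the median gene (centred -0.22, adjusted p = 0.0275), a call that was lost with no filter on low values (adjusted p = 0.0777) and with a trend (adjusted p = 0.0521). ALDOC, the aldolase best known from brain, had 144, 94.6 and 82.7 normalized counts in that order (log2 change -0.69, SE 0.19, adjusted p = 0.000723). PGAM1, the phosphoglycerate mutase gene, had 563, 412 and 454 (log2 change -0.38, SE 0.13, adjusted p = 0.00706).

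LDHB, which codes for the other main lactate dehydrogenase subunit, had 5336 normalized counts in the control, 3821 in column 1 and 4291 in column 2. Its log2 change of -0.40 (SE 0.15, adjusted p = 0.0157) was close to that of LDHA, and like that of LDHA its call was lost with a trend (adjusted p = 0.0596). Neither was called against the median gene (LDHB centred 0.02, adjusted p = 0.885). The remaining 4 genes did not pass under spike-in scaling. ADPGK, an ADP-dependent glucokinase, had 3369, 2772 and 2989 normalized counts (log2 change -0.23, adjusted p = 0.166). BPGM, which makes the bisphosphoglycerate that tunes oxygen binding in red cells, had 718, 648 and 685 (log2 change -0.11, adjusted p = 0.446). Both were called higher than the median gene, ADPGK at 0.19 (adjusted p = 0.0383) and BPGM at 0.31 (adjusted p = 0.0105). With no filter on low values both calls were lost (adjusted p = 0.0837 for ADPGK and 0.0603 for BPGM). The enolase isozyme genes were weakly transcribed, with 64.4, 51.3 and 50.0 normalized counts for ENO2 (log2 change -0.34, adjusted p = 0.196) and 88.2, 73.5 and 68.5 for ENO3 (log2 change -0.31, adjusted p = 0.186).

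For the pathways around glycolysis, the counts of genes called lower under spike-in scaling stand against 65.6% of all genes called lower and 0.101% called higher, and no gene of these lists was called higher. Of the pentose phosphate genes, 7 of 8 were called lower (median log2 change -0.40). H6PD, which starts this route in the endoplasmic reticulum, had 812 normalized counts in the control, 364 in column 1 and 408 in column 2, a log2 change of -1.07 (adjusted p = 5.19e-14), and was called lower than the median gene as well (-0.66, adjusted p = 3.47e-06). RPIA, the ribose 5-phosphate isomerase gene, had the highest change of that list (-0.21, adjusted p = 0.161). Relative to the median gene RPIA was called higher by limma (0.21, adjusted p = 0.0475). Of the regulators of flux, 2 of 5 listed genes were called lower (median -0.22). PFKFB2, which sets the level of an activator of phosphofructokinase, had 849, 505 and 516 normalized counts in the control and the 2 dIWS1 columns. Its log2 change was -0.73 (adjusted p = 3.98e-07), and it was called lower than the median gene as well (-0.32, adjusted p = 0.00843). TXNIP, an inhibitor of glucose uptake, was highest of that list (-0.13, adjusted p = 0.442) and was called higher than the median gene (0.29, adjusted p = 0.00222). With no filter on low values the centred calls of RPIA (adjusted p = 0.0974), PFKFB2 (adjusted p = 0.0629) and TXNIP (adjusted p = 0.0641) were lost.

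The counts of the next lists stand against the same 65.6% of all genes called lower. Of the genes for glucose and lactate transport, 2 of 4 were called lower (median log2 change -0.27). BSG, the partner protein of the lactate carriers, had a log2 change of -0.42 (adjusted p = 0.00889). SLC16A1, a lactate carrier gene, had 6658 normalized counts in the control, 5995 in column 1 and 6972 in column 2 (log2 change -0.04, adjusted p = 0.796) and was called higher than the median gene (0.37, adjusted p = 5.63e-05). Of the genes for pyruvate entry into mitochondria, 1 of 6 was called lower (median -0.27). The fitted values ran from -0.28 for DLAT (adjusted p = 0.0855) to -0.01 for MPC2 (adjusted p = 0.954). MPC2 was called higher than the median gene by limma (0.41, adjusted p = 0.00144). Of the gluconeogenesis and glycogen genes, 4 of 7 were called lower (median -0.31), from -0.55 for PCK2 (adjusted p = 0.000119) to -0.10 for PGM2 (adjusted p = 0.51). PGM2 was also called higher than the median gene (0.31, adjusted p = 0.00148). Of the transcriptional regulators of glycolysis, 4 of 9 were called lower (median -0.28). EPAS1, the gene for a hypoxia-inducible factor subunit, had 10081, 6308 and 7257 normalized counts (log2 change -0.58, adjusted p = 0.000396). MYC had 2876, 2685 and 2856 normalized counts (log2 change -0.05, adjusted p = 0.742) and was called higher than the median gene (0.36, adjusted p = 0.000161).

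**Figure D4:**
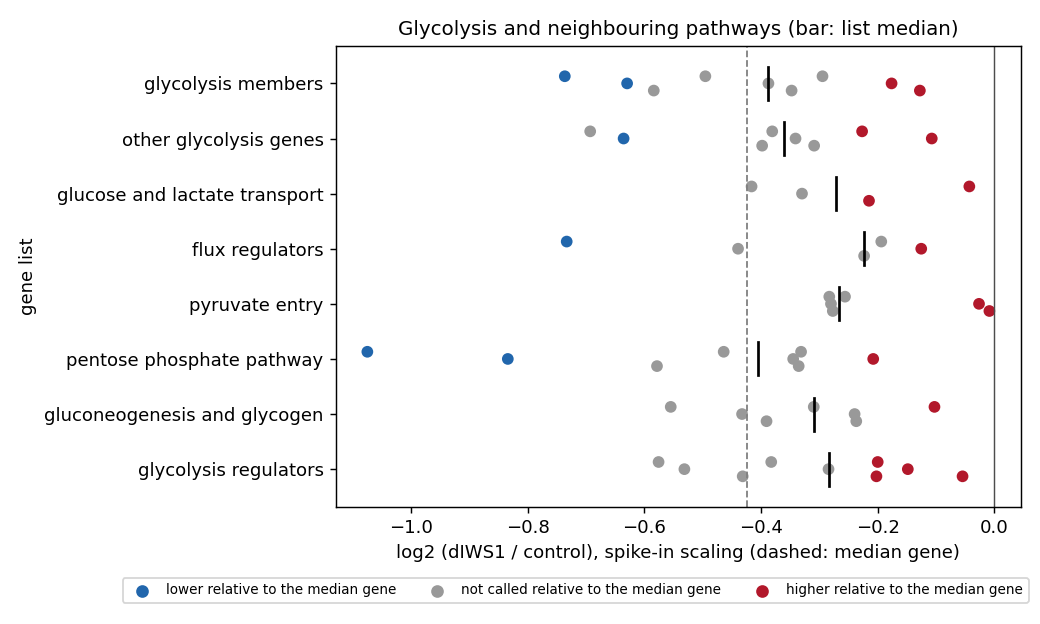
Log2 change of every listed gene under spike-in scaling, grouped by list, from the 9 glycolysis enzyme genes to the regulators of glycolysis, with a bar at each list's median and colours for the calls relative to the median gene. The list medians run from -0.40 (pentose phosphate pathway) to -0.22 (flux regulators), with the median of all genes tested at -0.42.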

How the data were processed

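TT-seq libraries of 2 control and 2 dIWS1 samples of an edited K562 line were analysed. The authors used STAR (2.6.0) for unique alignment to GRCh38 and the spike-ins, counted read pairs per RefSeq gene by strand, left out overlapping and weakly covered genes, and ran DESeq2 with spike-in size factors. The RefSeq release is not given in the sources used here. The deposited table holds for each gene a coverage signal, the mean of the spike-in-scaled counts over 4 library columns. It also holds the authors' own comparison: a log2 fold change with its standard error and score, and p-values before and after adjustment. None of these is printed or tested here. The deposited log2 fold change was used in 2 places: to tell which recovered column was the control, and to choose among several sets of reads.

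Whole reads per column were recovered by writing each mean as a sum of whole multiples of 3 steps. Of 10147 genes, 10135 had 1 set of reads, 11 had a mean of 0 and 1 was left out. Of the 9 listed members, 8 had 1 solution from the mean alone, and for HK1 the fold change chose. The control column had a weight of 2 in the deposited mean, so it was counted as 1 sample. Only 3 distinct columns were therefore analysed, and the second control library could not be seen apart. The p-values rest on the spread between 2 dIWS1 columns, described as biological replicates. The limma fit moderates this spread over all genes, so a standard error follows the columns of its own gene only weakly. Under spike-in scaling GPI and PGK1 both had an SE of 0.15, though their columns differed by 0.02 and -0.17. Under this scaling the spread also held the general difference between the columns (median of column 1 minus column 2, -0.12). Recovered reads were tested with limma (3.58.1, voom weights, R 4.3.3) on genes with a mean of at least 10, with Benjamini-Hochberg adjustment over 9916 genes and an adjusted p under 0.05. This was done with the spike-in size factors and with each column centred on its median gene (genes with a mean of at least 100). The scripts were tested on simulated data. Depth ran from 20599922 to 29697189 reads in genes (median of 1133 control reads per gene), and intervals (95%, exact, from reads) cover counting error only. Log2 ratios used a pseudocount of 0.5 normalized counts. Coordinates and lengths are those of RefSeq on GRCh38.p14.

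The members and lists were chosen with earlier results of these data known. The text names all members, IWS1, each listed gene of the other glycolysis genes, and the lowest and highest gene of each further list. The alternatives were other filters, thresholds and scalings, limma with a trend, the control entered 2 times, another pseudocount, and each dIWS1 column left out.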

Additional observations from a re-analysis of the deposited data

How the results depend on the processing

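The spread between control libraries was not measured, so every adjusted p assumes that it is like that between the dIWS1 columns. No paired analysis was possible because the recovered columns carry no replicate number. Counts for the other lists below are out of 8 other glycolysis genes, 8 pentose phosphate, 5 flux and 4 transport genes. They also include 6 pyruvate entry genes, 7 gluconeogenesis and glycogen genes and 9 regulators. Over the settings with a test, 323 values of single genes kept their direction and side of the threshold, 33 lost a call, 10 gained one and 20 turned sign. Of 120 values with a dIWS1 column left out, which have no test, 7 turned sign, none of them called. Without column 1 these were SLC16A1 (0.066) and MPC2 (0.064) under spike-in scaling, and GPI (-0.037), ENO2 (-0.0040) and ENO3 (-0.0037) relative to the median gene. Without column 2 they were LDHB (-0.013) and BSG (0.0064) relative to the median gene.

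Scaling by total reads in genes removes the shared shift. It called 2 members lower and 2 higher, 4 genes of the other lists lower and 16 higher, and 1411 of all genes lower and 1914 higher, with a members' median of 0.054. Under it the log2 change turned to 0.26 for HK2, 0.054 for GPI, 0.15 for PGK1, 0.31 for PKM and 0.094 for LDHA. It turned likewise to 0.21 for ADPGK, 0.061 for PGAM1, 0.33 for BPGM, 0.10 for ENO2, 0.13 for ENO3, 0.043 for LDHB, 0.025 for BSG, 0.40 for SLC16A1, 0.32 for TXNIP, 0.16 for DLAT, 0.43 for MPC2, 0.23 for RPIA, 0.34 for PGM2 and 0.39 for MYC. Against the centred value, BSG alone turned, to 0.025.

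Under spike-in scaling, limma with a trend called 15 genes of the other lists lower, where 55.1% of all genes were called lower. It lost GPI (adjusted p = 0.058), LDHA (adjusted p = 0.0933) and LDHB (adjusted p = 0.0596). With the control entered 2 times, 46 of all genes were called higher, and PGK1 was called lower (adjusted p = 0.0243). At an adjusted p under 0.01, 14 genes of the other lists were called lower and 6 of all genes higher, and GPI, LDHA and LDHB lost their calls. The share of all genes called lower at that threshold is not given here, so the 14 have no background. With a log2 change of at least 0.5, 3 members, 9 genes of the other lists and 3741 of all genes were called lower, and 3 of all genes higher.

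Relative to the median gene and with no filter on low values, 0 members were called lower and 1 higher, 1 gene of the other lists lower and 4 higher, and 590 of all genes lower and 398 higher. Beside HK1, HK2 and PFKL, the genes named in the text that lost their call were ADPGK, TPI1, BPGM, PFKFB2, TXNIP and RPIA. A trend lost TPI1 and RPIA (adjusted p = 0.0521 and 0.0780). The control entered 2 times gave 7 genes of the other lists lower, and 2760 of all genes lower and 2631 higher. Among the members it also called ALDOA lower (adjusted p = 0.0243) and PGK1 higher (adjusted p = 0.0321). At an adjusted p under 0.01, 2 genes of the other lists were lower and 7 higher, and 1032 of all genes lower and 862 higher. Leaving out 1 dIWS1 column gave values with no test: a members' median from -0.40 to -0.38 under spike-in scaling, and from -0.037 to 0.090 relative to the median gene, reversed without column 1. The causes of these moves were not tested.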
